A study of Mus musculus with 16 samples.

Results

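Amino acid transporters carry amino acids across the plasma membrane, and in brain microvascular endothelial cells they supply both the cell itself and the traffic between blood and brain. Slc7a5 (LAT1) and Slc7a11 (xCT) work only as partners of Slc3a2 (4F2hc, CD98), the heavy chain that brings them to the cell surface. Slc7a5 exchanges large neutral amino acids such as leucine, and Slc7a11 imports cystine in exchange for glutamate. Many genes of this kind are known targets of ATF4, the transcription factor that is translated when amino acids are scarce or the integrated stress response is active, and Slc7a5 is also known to depend on mTORC1, the kinase complex that rapamycin inhibits.

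The 10 transporter genes described here were chosen by name out of 54193 genes in the summed table: the cationic amino acid carriers Slc7a1 (CAT1) and Slc7a3 (CAT3), the light chains Slc7a5 and Slc7a11, the heavy chain Slc3a2, the neutral amino acid exchangers Slc1a4 (ASCT1) and Slc1a5 (ASCT2), the sodium-coupled glutamine and alanine carriers Slc38a1 (SNAT1) and Slc38a2 (SNAT2), and the glycine carrier Slc6a9 (GlyT1). The choice was made with earlier results of these data known. A count of transporters beside the share of all genes is thus a description. For each gene the estimated read counts of all its transcripts were summed in 16 libraries. All 10 passed the filter on low counts and were among the 14838 genes tested. In GENCODE M39 (GRCm39) the light chain Slc7a5 (ENSMUSG00000040010.12) spans chr8:122607884-122634433 and its heavy chain Slc3a2 (ENSMUSG00000010095.15) chr19:8684245-8701108, both on the minus strand. Slc1a5 (ENSMUSG00000001918.19) spans chr7:16515265-16532731 and Slc6a9 (ENSMUSG00000028542.19) chr4:117691703-117732395, both on the plus strand. Slc38a1 (chr15:96469298-96541851) and Slc38a2 (chr15:96585266-96597894) lie on the minus strand of the same chromosome, and the minus strand also holds Slc7a1 (chr5:148264220-148336848), Slc7a11 (chr3:49846975-50398070), Slc1a4 (chr11:20252180-20282774) and Slc7a3 (chrX:100122745-100129631). Values are sums over those annotated transcripts of each gene that the files hold, from 2 of 9 for Slc1a4 and 2 of 21 for Slc38a2 to 12 of 28 for Slc6a9.

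The cells were primary brain microvascular endothelial cells (mBMEC) of adult mice, 8 to 10 weeks old, that all carried Cdh5(PAC)-CreERT2, an endothelial, tamoxifen-activated Cre, and Pdcd10 fl/fl alleles. Pdcd10 encodes CCM3. Knockout (KO) cultures had received 4-hydroxytamoxifen and wild-type (WT) cultures had not, so loss of Ccm3 and exposure to that agent cannot be told apart. Cells were left untreated (3 WT and 3 KO libraries), given 10 µM propranolol, a beta-blocker (+P, 2 WT and 3 KO), or given 100 nM rapamycin (+R, 2 WT and 3 KO), for 24 h. Each culture came from pooled brains, and the medium contained serum and glutamine.

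Libraries held 18.83 M to 26.2 M counts. Pdcd10 itself stood at 11.5, 31.2 and 47.0 CPM (counts scaled to library size with TMM normalisation) in WT replicates 1 to 3 and at 9.72, 11.0 and 9.73 in KO replicates 1 to 3. The treated WT libraries stood at 32.45 and 60.81 CPM with propranolol and at 27.67 and 51.96 CPM with rapamycin. The library labelled WT replicate 1 was thus, alone among the WT libraries, as low in Pdcd10 as the KO libraries. Most calls, group separations, same-number counts, correlations with Atf4 and list counts that use this library are also given without it. The WT order of ratios over replicate numbers, the correlations between transporters and the genes most like Slc7a5 are not. The 10 endothelial marker genes summed to between 6825 and 13590 CPM and were led by Cdh5, while astrocyte, microglial and oligodendrocyte markers summed to at most 7.54, 2.84 and 2.04 CPM. Mural cell markers, chiefly Acta2, ranged from 31.0 to 623 CPM, fibroblast markers from 2.64 to 186 CPM and neuronal markers, chiefly Tubb3, from 1.75 to 28.5 CPM.

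The DNA around the start sites was read first, because ATF4 acts through a short element whose letters can be searched for. The letters TGATGNAA were looked for on both strands of the GRCm39 genome around the first base of each gene's canonical GENCODE transcript. From 250 bases before to 50 bases after the start, 2 of 10 transporters held them, against 2.38% of 13112 promoters of tested protein-coding genes. Within 1000 bases on either side 8 of 10 did, against 17.3%, with no copy for Slc7a5 or Slc3a2. The stretches are printed 5′ to 3′ on the strand of the gene with the matching letters in capitals, as TGATGNAA or as its reverse complement.
Slc7a11: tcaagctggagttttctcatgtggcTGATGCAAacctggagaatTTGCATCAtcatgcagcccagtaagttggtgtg
Slc38a1: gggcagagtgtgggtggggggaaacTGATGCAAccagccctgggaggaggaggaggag
Slc1a4: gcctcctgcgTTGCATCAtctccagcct
Slc7a3: gggcttgcaaTTGCATCAgcgcaactgt
Slc6a9: ctcgggaggcTGATGCAActttcccttt
Slc38a2: cccctcggtaTTGCATCAgttcctcccg
Slc7a1: gcgtggtgcaTGATGCAAcagcgggagg
Slc1a5: tttctcccacTGATGAAAtcacaaggaa

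The Slc7a11 stretch (chr3:50398077-50398153, minus strand) holds 2 copies in opposite orientations, whose first letters lie 65 and 46 bases before the start. In Slc38a1 (chr15:96540302-96540359, minus strand) the copy begins 56 bases before the start of the canonical transcript, inside the annotated span of longer transcripts. The Slc1a4 copy (chr11:20282700-20282727, minus strand) begins 58 bases after the start, in an exon, as does, at 346 bases, that of Slc6a9 (chr4:117692583-117692610, plus strand). Those of Slc7a3 (chrX:100128772-100128799, minus strand), Slc38a2 (chr15:96597048-96597075, minus strand) and Slc7a1 (chr5:148336300-148336327, minus strand) lie in introns of the canonical transcripts, and the Slc7a3 and Slc38a2 copies are exonic in other annotated transcripts. Slc7a1 had a further copy in an exon, and the Slc1a5 copy (chr7:16514265-16514292, plus strand) lies 990 bases before the start. The letters TGACNNNGC, the core of the antioxidant response element through which NRF2 acts, were in the near window of 1 of 10 genes (13.6% of promoters) and in the far window of 5 of 10 (54.2%). A match of letters is a description of the sequence and not a measured binding site.

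Levels of different genes were compared as TPM, a share of all transcripts that corrects for length. In untreated WT cells Slc3a2 (185 ± 67.6 TPM, SD, n = 3) and Slc38a2 (157 ± 33.8) were the most abundant, and their libraries overlapped. Slc7a5 followed at 48.6 ± 5.26 TPM, below every library of those genes and above every library of Slc1a4 (18.9 ± 4.60). From Slc1a4 through Slc7a1 (12.4 ± 4.01), Slc1a5 (8.58 ± 2.74) and Slc38a1 (5.79 ± 2.34) to Slc7a11 (2.21 ± 2.08) and Slc6a9 (1.74 ± 0.656), the libraries of each gene overlapped those of the next. Slc7a3 was nearly silent at 0.375 ± 0.140 TPM. Under propranolol Slc3a2 reached 605 ± 421 TPM in KO cells and Slc7a3 11.0 ± 9.99 TPM (n = 3), while under rapamycin Slc7a5 stood at 13.2 ± 1.14 TPM in WT cells (n = 2).

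**Figure D1:**
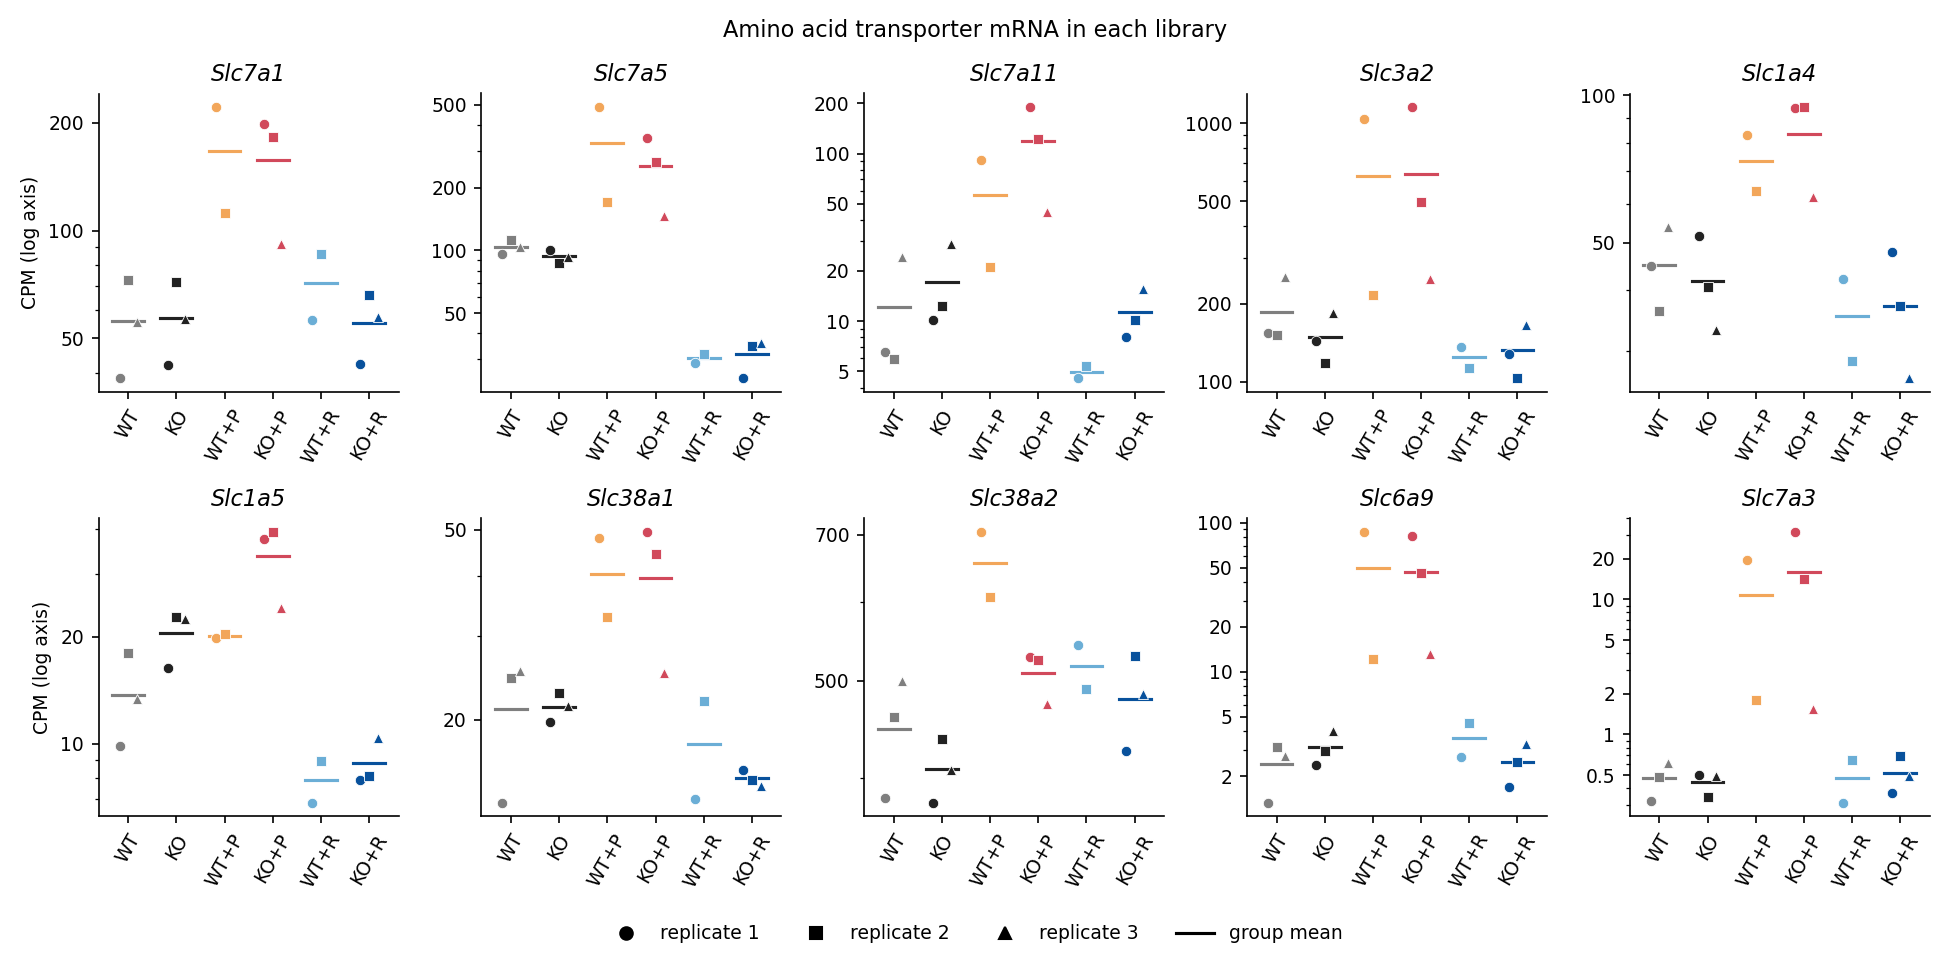
Levels of the 10 transporters in the 16 libraries, in TMM-normalised CPM on log axes that differ between panels. Points are libraries, with shapes for replicate numbers, and lines are group means. Propranolol libraries (+P) lie high for most genes, led by replicate 1, and rapamycin libraries (+R) lie low for Slc7a5 and Slc1a5.

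Propranolol was compared with no treatment. All 10 transporters had higher estimates with propranolol in both genotypes, from small differences for Slc38a2 and Slc1a5 to differences above 10-fold for Slc6a9 and Slc7a3. In KO cells every propranolol library lay above every untreated library for 10 of 10 transporters, as it did for 9.58% of all tested genes, and in WT cells for 8 of 10 (10.8% of all), the exceptions being Slc3a2 and Slc7a11. Without WT replicate 1 the WT count was also 8 (14.8% of all). The size of the difference varied widely between libraries, and edgeR's quasi-likelihood test called none of the 10 within a single genotype.

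Slc3a2, the shared heavy chain, stood at 154, 151 and 255 CPM in WT and 144, 118 and 185 in KO replicates 1 to 3. With propranolol it stood at 1035 and 217 CPM in WT replicates 1 and 2 and at 1156, 496 and 250.1 in KO replicates 1 to 3. Replicate 1 was far above the others in both genotypes, and WT+P replicate 2 was below the untreated WT replicate 3. The cystine light chain Slc7a11 ran alongside: untreated libraries held 6.53, 5.90 and 24.1 CPM in WT and 10.2, 12.2 and 28.9 in KO. Its propranolol libraries held 91.9 and 21.0 CPM in WT and 190, 123 and 45.0 in KO, and only the KO groups were fully separate. Slc7a5, the leucine light chain, was even between untreated libraries, at 96.2, 112 and 103.6 CPM in WT and 100.2, 87.3 and 93.4 in KO. Its propranolol levels of 486 and 171 CPM in WT and 344, 267 and 147 in KO lay above all of these.

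Slc6a9 and Slc7a3, which carry glycine and cationic amino acids, started from very low levels. Slc6a9 was at 1.33, 3.14 and 2.75 CPM in WT and 2.36, 2.96 and 4.04 in KO, against 87.1 and 12.2 in WT+P and 81.4, 46.3 and 13.3 in KO+P. Slc7a3 was at 0.322 to 0.615 CPM in the 6 untreated libraries and at 19.6 and 1.81 in WT+P and 31.8, 14.2 and 1.55 in KO+P. No propranolol library of either gene overlapped an untreated one. Slc7a1, the main cationic carrier, was at 38.7, 73.0 and 55.7 CPM in WT and 42.3, 71.6 and 56.8 in KO, against 221 and 112 in WT+P and 199, 182 and 91.5 in KO+P. Its groups did not overlap either.

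The 4 carriers of small neutral amino acids differed less. Slc1a4 ranged from 33.2 to 53.9 CPM without treatment and from 61.9 to 94.7 with propranolol, and Slc38a1 from 13.4 to 25.3 and from 25.1 to 49.5. Slc38a1 groups overlapped only across genotypes, where KO+P replicate 3 (25.1) fell just under WT replicate 3 (25.3). Slc1a5, the glutamine exchanger, had 9.85, 18.0 and 13.3 CPM in WT and 16.3, 22.7 and 22.4 in KO, and 19.8 and 20.4 in WT+P and 37.5, 39.4 and 24.0 in KO+P. Slc38a2 ranged from 378 to 500 CPM untreated and from 474 to 705 with propranolol, and its fold averaged over genotypes was the smallest of the 10.

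In KO cells the log2 fold changes with propranolol were 5.14 ± 1.02 (SE) for Slc7a3, 3.91 ± 0.74 for Slc6a9, 2.80 ± 0.72 for Slc7a11, 2.09 ± 0.56 for Slc3a2, 1.47 ± 0.36 for Slc7a1 and 1.43 ± 0.34 for Slc7a5. The median of the 10 was 1.45, beside -0.006 over all genes tested. A call required a Benjamini-Hochberg adjusted p under 0.05 over all genes and a fold above 1.5. By edgeR's quasi-likelihood test 0 of 10 were called in KO cells (0.00674% of all genes), with adjusted p from 0.121 (Slc6a9) to 0.358 (Slc38a2). In the same test 10 of 10 had an unadjusted p under 0.05, beside 1870 of all 14838 genes. The replicate block, which compares libraries of the same number, also called 0 of 10 (0.142% of all), with adjusted p from 0.061 to 0.156. DESeq2 called 7 of 10 (0.577% of the 27228 genes it was given). In WT cells the median was 1.62, beside 0.004 over all genes. There edgeR called 0 of 10 (0.00674%), with 9 of 10 at an unadjusted p under 0.05, beside 1464 of all 14838 genes. The block called 0 of 10 (0.0809%) and DESeq2 4 of 10 (0.43% of the 27228 genes it was given), namely Slc7a1, Slc7a5, Slc6a9 and Slc7a3.

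**Figure D2:**
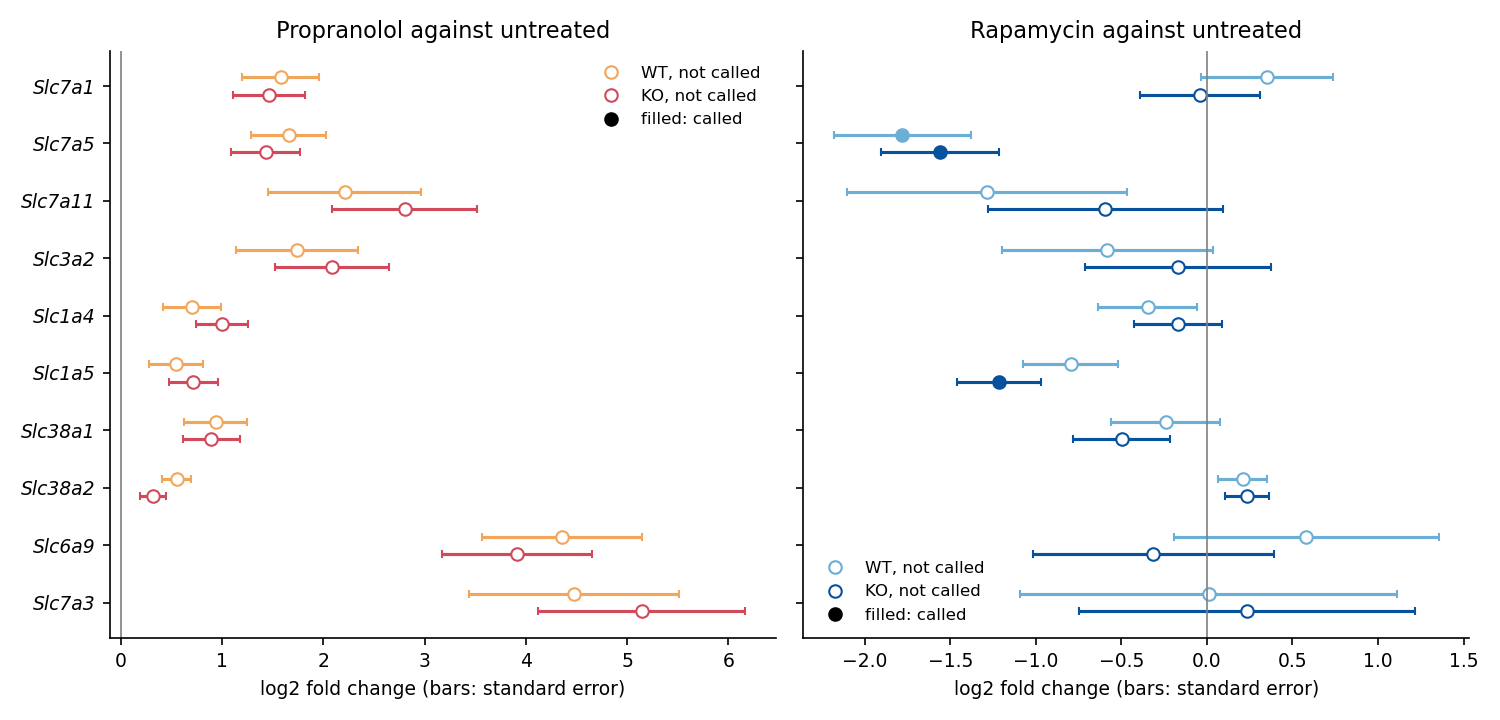
Fitted log2 fold changes of the 10 transporters against untreated cells of the same genotype, with standard errors, for propranolol (left) and rapamycin (right). Filled points were called by edgeR's quasi-likelihood test. All propranolol estimates are above 0 and none is filled, while Slc7a5 is filled under rapamycin in both genotypes and Slc1a5 in KO cells.

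The mean of both genotypes, a comparison added after the data had been seen, gave 8 of 10 transporters higher with propranolol in edgeR's quasi-likelihood test (1.58% of all genes). Slc6a9 rose 17.6-fold (adjusted p = 0.00445) and Slc7a3 28.0-fold (adjusted p = 0.0102). Without WT+P replicate 1 these folds were 8.72 and 11.5, and those of Slc7a11 and Slc3a2 were 3.47 and 2.22. Slc7a11 rose 5.69-fold, Slc3a2 3.77-fold, Slc7a5 2.92-fold, Slc7a1 2.88-fold, Slc38a1 1.89-fold and Slc1a4 1.81-fold, with adjusted p from 0.0127 to 0.0468. Slc1a5 was 1.55-fold higher at an adjusted p of 0.0825 in edgeR. The replicate block added it to make 9 of 10 (4.19% of all genes), as did DESeq2 (3.1% of the 27228 genes it was given). Slc38a2 passed the p threshold (adjusted p = 0.0436, edgeR) but its fold of 1.35 was under 1.5. The count depended on nearly every library. Leaving out a WT+P library leaves 1 in that group, and the counts of this average without such a library are not listed here. Without WT+P replicate 1 the fold of Slc7a5 was 2.11 and that of Slc7a1 2.36, and without WT+P replicate 2 they were 3.55 and 3.31. Except without WT replicate 1, the share of all genes called in fits that leave out 1 library is not given. Without WT replicate 1, whose Pdcd10 level goes against its label, edgeR called 3 of 10 (Slc7a5, Slc6a9 and Slc7a3), beside 0.378% of all genes. Without KO replicate 3 it called 2 and without KO replicate 1 it called 3. It called 4 without any 1 of WT replicates 2 and 3, KO replicate 2, KO+P replicates 1 and 2 or the 5 rapamycin libraries, and 9 without KO+P replicate 3. Within KO cells the count of 0 became 8 when KO+P replicate 3 was left out and 1 when either WT+P library was. Within WT cells it became 5 when WT+P replicate 2 was left out and 1 when KO+P replicate 3 was.

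The replicate numbers differed in a shared order, and the labels do not say what a number marks. Setting each treated library beside the untreated one of its replicate number, propranolol was higher in all 5 pairs for 10 of 10 transporters, as for 14.6% of all genes, and without the pair that holds WT replicate 1 it was higher in the remaining 4 pairs for 10 of 10 (17% of all). In KO cells the ratio was largest in replicate 1 for 9 of 10 transporters (38.4% of all genes), with Slc1a4 as the exception, and smallest in replicate 3 for 9 of 10 (35.0%). In WT cells it was larger in replicate 1 than in replicate 2 for 10 of 10 (49.8%). The WT ratios of replicate 1, here and below, divide by WT replicate 1, so the WT orders cannot be given without it. For Slc3a2 the ratios were 8.01, 4.19 and 1.35 in KO replicates 1 to 3 and 6.70 and 1.43 in WT replicates 1 and 2. Slc6a9 had ratios of 34.5, 15.6 and 3.28 in KO and 65.3 and 3.896 in WT. The endothelial markers had the opposite order: in KO cells the ratio was lowest in replicate 1 for 9 of 10 of them (39% of all genes) and highest in replicate 3 for 9 of 10 (38%), and in WT cells it was lower in replicate 1 than in replicate 2 for 10 of 10 (49.5%). Among them, Kdr, the VEGF receptor, stood at 59.2, 83.4 and 299.9 CPM in KO+P replicates 1 to 3 and at 53.2 and 197 in WT+P replicates 1 and 2, against 220 to 384 in untreated libraries. The summed endothelial markers ranged from 6825 to 10260 CPM with propranolol and from 10210 to 13590 without treatment. Mural markers summed to 174 and 316 CPM in WT+P against 38.2 to 174 in WT, and to 42.1 to 84.2 in KO+P against 31.0 to 55.9 in KO. Neuronal markers summed to 20.3 and 8.75 CPM in WT+P against 2.42 to 10.8 in WT, and to 28.5, 9.96 and 10.9 in KO+P against 6.64 to 10.4 in KO. In bulk RNA, fewer cells of a type and less RNA per cell cannot be told apart, and the part of these differences in the transporter values was not tested.

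**Figure D3:**
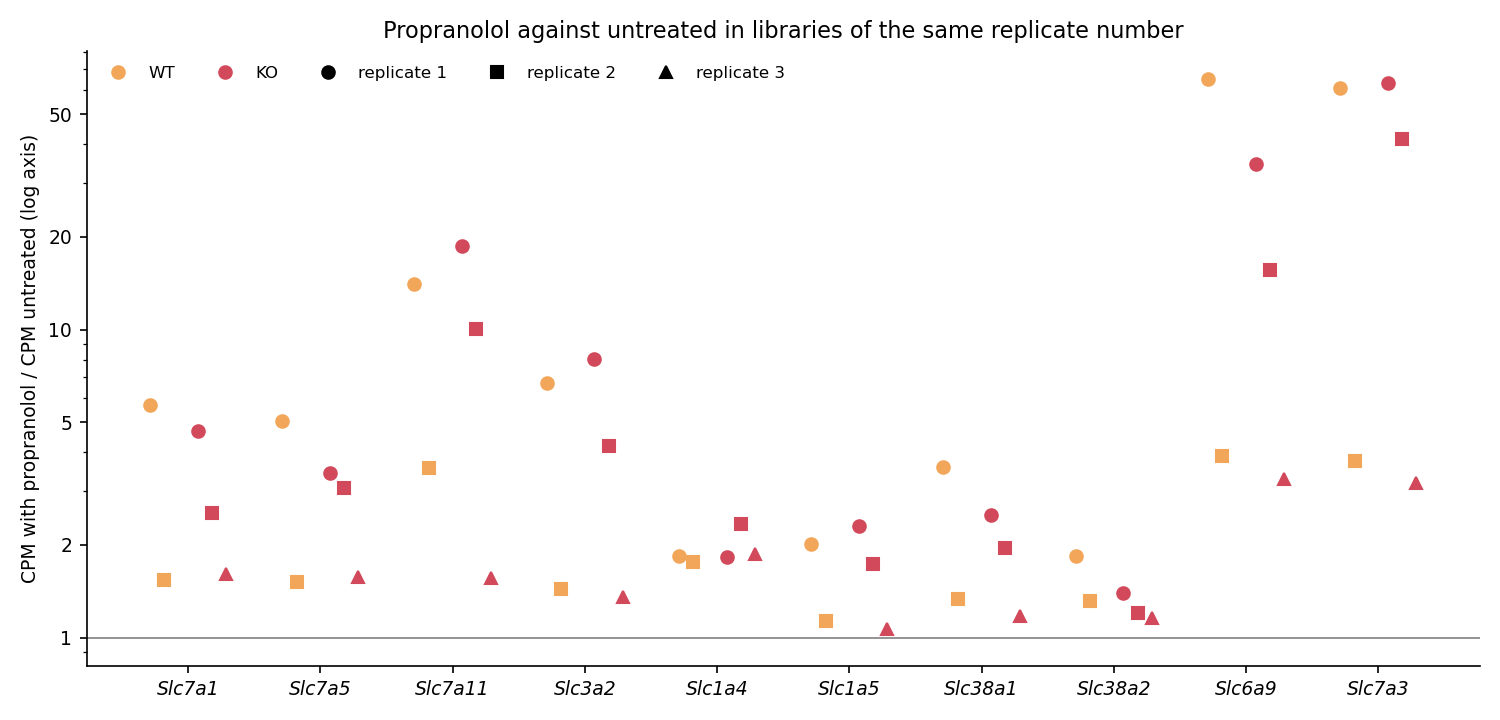
Ratio of CPM with propranolol to CPM without treatment in libraries of the same replicate number, on a log axis, for the 2 WT and 3 KO pairs. The line marks a ratio of 1. Every ratio is above 1, and replicate 1 (circles) is highest in KO cells for 9 of 10 genes.

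Rapamycin was compared with no treatment, using the same untreated libraries. Here 2 of the 10 transporters fell, Slc7a5 and Slc1a5, and the others showed no call. Slc7a5 stood at 28.9 and 31.7 CPM in WT+R replicates 1 and 2 and at 24.4, 34.9 and 35.95 in KO+R replicates 1 to 3, all far under the lowest untreated library (87.3). Slc1a5 stood at 6.85 and 8.98 CPM in WT+R and at 7.94, 8.12 and 10.4 in KO+R. In KO cells its groups were separate by a wide margin, and in WT cells the nearest libraries were WT replicate 1 (9.85) and WT+R replicate 2 (8.98).

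Averaged over genotypes, Slc7a5 was 3.18-fold lower (log2 fold change -1.67 ± 0.27, adjusted p = 0.0023) and Slc1a5 2.01-fold lower (-1.005 ± 0.19, adjusted p = 0.00572) in edgeR's quasi-likelihood test, so that 2 of 10 were called, beside 5.29% of all genes. Both calls held without any 1 of the 11 libraries of these groups, and without WT replicate 1 the adjusted p values were 0.00513 and 0.0041. In KO cells alone edgeR called Slc7a5 (-1.56 ± 0.34, adjusted p = 0.0405) and Slc1a5 (-1.21 ± 0.25, adjusted p = 0.0289), with 1.51% of all genes called. There 1 of 10 was called without WT replicate 1, beside 1.4% of all genes. In WT cells it called Slc7a5 only (-1.78 ± 0.40, adjusted p = 0.0481), with 1.4% of all genes called, and Slc1a5 missed the threshold (-0.80 ± 0.28, adjusted p = 0.214). Without WT replicate 1 the WT value of Slc7a5 was -1.84 with an adjusted p of 0.0925 in edgeR. Leaving out any 1 library of the compared groups likewise ended the single-genotype calls of Slc7a5, at adjusted p from 0.0925 to 0.365 in edgeR, with log2 fold changes from -1.375 to -1.85, and the KO call of Slc1a5 held in 1 of 6 such fits (adjusted p from 0.0499 to 0.128). Mural cell markers summed to 564 to 623 CPM in the WT+R libraries, above the 38.2 to 174 CPM of WT, and to 62.5 to 171 CPM in KO+R against 31.0 to 55.9 CPM in KO. Endothelial markers summed to 8634 and 8859 CPM in WT+R against 10210 to 13590 in WT, and to 10180 to 11670 in KO+R against 10730 to 12310 in KO. The part of these markers in the transporter values was not tested.

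The other 8 transporters had no call. In the 5 same-number pairs rapamycin was lower in all for Slc7a5, Slc7a11, Slc3a2, Slc1a4 and Slc1a5 (5 of 10, beside 22.9% of all genes) and higher in all for Slc38a2 (1 of 10, beside 18.5%). Every rapamycin library lay below every untreated one for 3 of 10 transporters in KO cells (13.2% of all genes) and for 4 of 10 in WT cells (14.7%). Without WT replicate 1 the WT count was 5 (20.7%), and lower in the remaining 4 pairs were 6 (27.1%) and higher 1 (21.3%). Slc7a11 had 4.56 and 5.41 CPM in WT+R and 8.05, 10.2 and 15.6 in KO+R, and its mean log2 fold change of -0.94 ± 0.53 had an adjusted p of 0.337 in edgeR. The partner Slc3a2 stood at 136 and 113 CPM in WT+R and 128, 103 and 166 in KO+R, with -0.38 ± 0.41 (adjusted p = 0.652, edgeR). The heavy chain was not called while its light chain Slc7a5 was, and the difference between these genes was not tested. Slc38a2 ranged from 425 to 543 CPM under rapamycin, and its estimate of 0.22 ± 0.10 had an adjusted p of 0.194 in edgeR.

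Slc6a9 went up with rapamycin in both WT pairs (ratios 2.01 and 1.45) and down in all 3 KO pairs (0.717, 0.845 and 0.816). These were levels of 1.33 to 4.55 CPM, and the interaction of rapamycin with genotype had an adjusted p of 1 in edgeR's quasi-likelihood test. The rapamycin libraries of Slc7a3 (0.313 to 0.697 CPM) and Slc7a1 (42.5 to 86.3 CPM) overlapped the untreated ones (0.322 to 0.615 and 38.7 to 73.0 CPM).

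The drugs were then set against each other directly, a contrast of treated groups in which the untreated libraries entered only through the shared estimate of the spread. In KO cells 9 of 10 transporters were lower with rapamycin than with propranolol by edgeR's quasi-likelihood test (4.08% of all genes), all but Slc38a2. The smallest adjusted p values were those of Slc7a5 (log2 difference -2.99 ± 0.36, adjusted p = 0.00142) and Slc1a5 (-1.93 ± 0.25, adjusted p = 0.00164), and the median over the 10 was -2.10, beside -0.02 over all genes. For these 9 genes every rapamycin library lay below every propranolol library (13.9% of all genes). In WT cells that was so for 10 of 10 (19.4%), where edgeR called only Slc7a5 (-3.44 ± 0.45, adjusted p = 0.00694; 1.31% of all genes). With the replicate block it called 5 of 10 in WT cells (4.93% of all genes): Slc7a5, Slc7a11, Slc1a4, Slc1a5 and Slc6a9. Fitted on the libraries compared alone, the counts were 2 in KO and 0 in WT cells, and the share of all genes called there is not given. In KO cells the count of 9 became 8 without WT replicate 1 (3.61% of all genes), 3 without KO+P replicate 1, 4 without KO+P replicate 2 and 3 without any 1 of the KO+R libraries. In WT cells the count of 1 became 2 without WT replicate 1 (1.09% of all genes) or WT replicate 2 and 4 without KO+P replicate 3. Leaving out a WT+P or WT+R library leaves 1 in that group, and counts without such a library are not listed here. In those fits the log2 difference of Slc7a5 ran from -4.006 to -2.496.

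No transporter was called for loss of Ccm3. By edgeR's quasi-likelihood test 0 of 10 were called in untreated cells (0.00674% of all genes), under propranolol (0%) or under rapamycin (0%). In that test 1, 2 and 0 of 10 had an unadjusted p under 0.05, beside 900, 918 and 849 of all 14838 genes. DESeq2 and the replicate block called 0 of 10 in each comparison. Over all genes DESeq2 called 62, 59 and 73 of 27228, and the block called 27, 13 and 14 of 14838. The median log2 fold changes of the 10 were -0.04, -0.003 and 0.07. Slc7a11 was the one gene higher in KO than in WT in all 7 same-number pairs (1 of 10, beside 6.98% of all genes), as in the 6 pairs without WT replicate 1 (7.83%), with ratios of 1.55, 2.07 and 1.20 untreated, 2.06 and 5.84 under propranolol and 1.76 and 1.89 under rapamycin. Its estimates were 0.49 ± 0.68, 1.08 ± 0.77 and 1.18 ± 0.81, with adjusted p of at least 0.885 in edgeR. Slc1a5 had KO to WT ratios of 1.66, 1.26 and 1.68 untreated, 1.90 and 1.93 under propranolol and 1.16 and 0.904 under rapamycin. Its estimates were 0.57 ± 0.24 and 0.74 ± 0.28 in untreated and propranolol-treated cells (adjusted p = 0.758 and 0.694, edgeR). Without WT replicate 1 the count in untreated cells was also 0 (0% of all genes).

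Neither drug was shown to act differently in the genotypes. For the interaction with genotype edgeR called 0 of 10 for propranolol (0% of all genes) and 0 of 10 for rapamycin (0%). DESeq2 called 0 of 10 for both, beside 0 (propranolol) and 1 (rapamycin) of all 27228 genes. In edgeR none of the 10 had an unadjusted p under 0.05 for either drug, beside 107 (propranolol) and 113 (rapamycin) of all 14838 genes. Standard errors of the propranolol interaction ran from 0.19 (Slc38a2) to 1.36 (Slc7a3) on the log2 scale.

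Most reads fell on 1 coding transcript for Slc7a1, Slc7a5, Slc7a11 and Slc38a2. Slc1a5 was split: besides its coding transcript Slc1a5-201, a retained-intron transcript, Slc1a5-202, took 18.2% ± 4.5 of its counts in WT and 18.5% ± 4.2 in KO (SD, n = 3). That share was 28.2% ± 0.2 in WT+P (n = 2), 29.2% ± 5.7 in KO+P (n = 3), 5.4% ± 4.4 in WT+R (n = 2) and 13.5% ± 5.4 in KO+R (n = 3). The KO+P libraries (23.9 to 35.2%) lay above the KO libraries (14.9 to 23.1%), and the differences were not tested. In Slc6a9 the transcripts Slc6a9-201 and Slc6a9-202 shared the counts, and 57.2% and 59.0% of their exonic bases also belong to B4galt2, Ccdc24 or Gm17114. Since the libraries were unstranded, reads there cannot be assigned with certainty. B4galt2 stood at 15.3 to 31.8 CPM with propranolol and 23.1 to 33.3 without treatment, and Ccdc24 at 0.361 to 1.33 CPM with propranolol. Slc3a2-201, which overlaps no other gene, carried 66.0 to 81.8% of the Slc3a2 counts in the untreated libraries and 66.9 to 79.5% with propranolol, and among the 3 leading Slc3a2 transcripts the overlap with the host gene Snhg1 touched Slc3a2-202 (14.0% of its bases).

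Outside the transporter set, a list of 18 genes of the amino acid response was read. It holds Atf4 itself and upstream kinases besides ATF4 targets, and it was chosen with earlier results of these data known. Averaged over genotypes, 7 of 18, Atf4 among them, rose with propranolol in edgeR's quasi-likelihood test and 0 fell (1.58% of all genes were called). The median log2 fold change was 1.55, beside -0.004 over all genes. When WT replicate 1 was left out the calls were 4 (Atf5, Chac1, Asns and Nupr1), and 0.378% of all genes were called. Atf4 itself stood at 265, 242 and 314 CPM in WT and 220, 214 and 217 in KO, against 1078 and 356 in WT+P and 1047, 583 and 414 in KO+P. Its replicate 1 libraries were again the highest, and it rose 2.87-fold (adjusted p = 0.0183). Chac1, a glutathione-degrading enzyme, rose 14.1-fold, Asns, the asparagine synthetase, 6.54-fold, Nupr1, a stress-induced cofactor, 5.98-fold, Atf5 4.98-fold and Ppp1r15a, which brings phosphatase to eIF2alpha, 4.12-fold (adjusted p from 0.00341 to 0.0169, edgeR). Within KO or WT cells alone edgeR called 0 of 18, and with the replicate block Nupr1 was called in KO cells.

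The same list was read under rapamycin. Averaged over genotypes edgeR called 0 of 18 higher and 2 lower, beside 5.29% of all genes called, and without WT replicate 1 the same 2 were lower: Vldlr, a lipoprotein receptor (3.33-fold, adjusted p = 0.00145), and Ddit4, an mTORC1 inhibitor (2.04-fold, adjusted p = 0.00622). Atf4 stood at 235 and 182 CPM in WT+R and 199.6, 150.2 and 174 in KO+R, with a log2 fold change of -0.35 ± 0.27 (adjusted p = 0.496, edgeR). The replicate block added Trib3, a pseudokinase, as lower (1.87-fold) and Nupr1 as higher (1.96-fold). Between the drugs in KO cells 8 of 18 were lower with rapamycin in edgeR (4.08% of all genes were called; 9 of 18 without WT replicate 1), among them Atf4 (log2 difference -1.96 ± 0.37, adjusted p = 0.0123), Chac1, Asns, Atf5, Nupr1 and Vldlr.

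**Figure D4:**
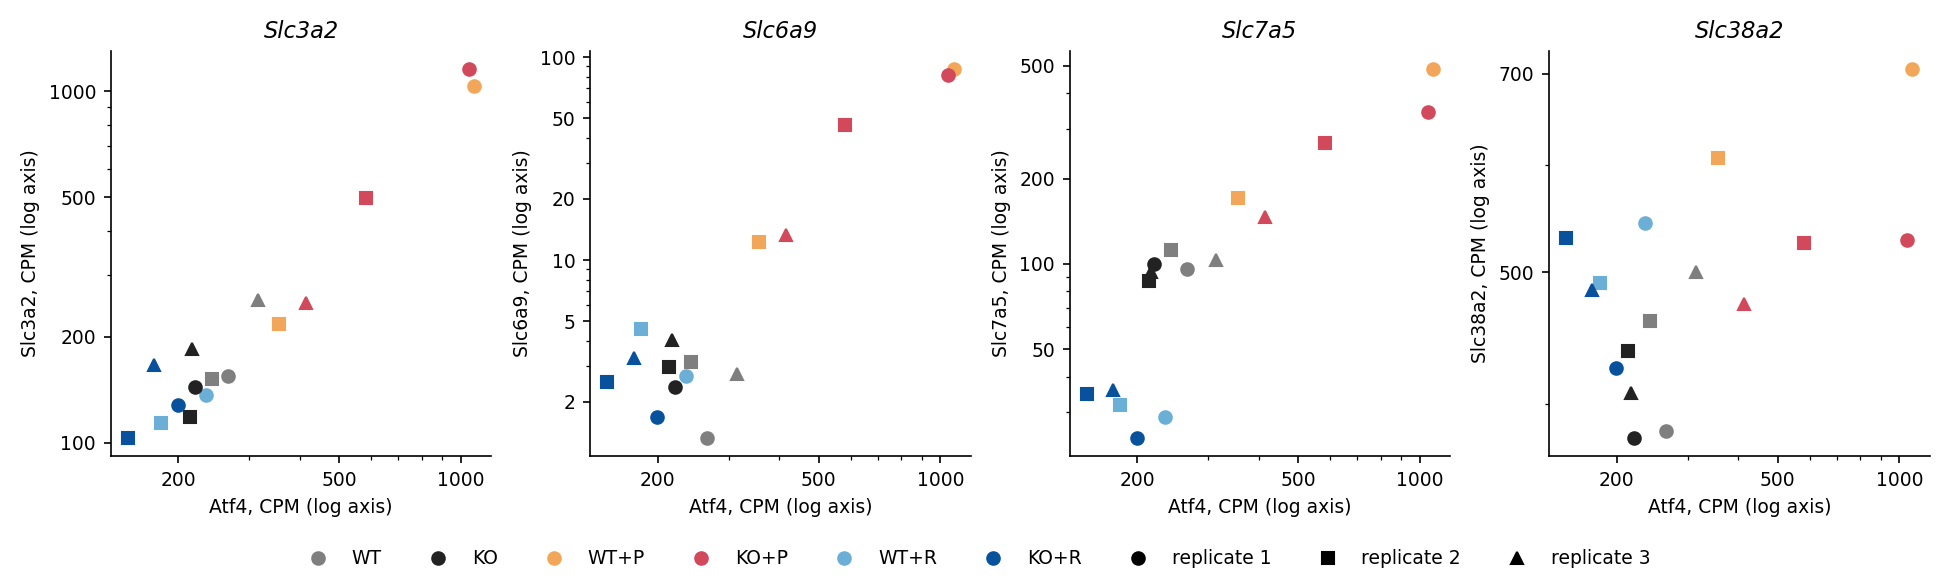
Level of Slc3a2, Slc6a9, Slc7a5 and Slc38a2 against that of Atf4 in the 16 libraries, both in CPM on log axes. Colours mark groups and shapes replicate numbers. The 5 propranolol libraries have the highest Atf4 levels and the highest Slc6a9 and Slc7a5 levels, and the 5 rapamycin libraries lie apart at low Slc7a5.

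Over the 16 libraries the log2 levels of the 10 transporters had correlations with Atf4 from 0.565 (Slc38a2) to 0.971 (Slc3a2), with a median of 0.878, beside -0.009 over all genes, and without WT replicate 1 they ran from 0.591 to 0.973. Points of the same replicate number may share a culture, which the labels do not say, and the pattern rested largely on the propranolol libraries. Without those 5, over 11 libraries, r was 0.725 for Slc3a2, 0.641 for Slc7a5 and 0.619 for Slc1a4, and it was below 0 for Slc7a1 (-0.337), Slc7a3 (-0.332), Slc6a9 (-0.268) and Slc38a2 (-0.255). Between transporters the 45 correlations ran from 0.15 (Slc1a5 with Slc38a2) to 0.973 (Slc6a9 with Slc7a3). The genes whose levels were most like those of Slc7a5 over the 16 libraries were Gfod1 (0.968), Psat1 (0.967), a serine synthesis enzyme, Elmo1 (0.96), Cdk17 (0.957) and Chrm3 (0.95).

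Of 29 other amino acid transporter genes 19 were expressed enough to be tested. Averaged over genotypes edgeR's quasi-likelihood test called 0 of 19 with propranolol, with a median log2 fold change of -0.06, and 1 of 19 with rapamycin, Slc38a3 (SNAT3), a share close to the 5.29% of all genes called there. Both counts were the same without WT replicate 1. Slc38a3 was scarce, at 1.89 to 2.21 CPM in WT and 1.33 to 4.69 in KO against 0.0430 to 0.212 with rapamycin, where each library held 1 to 4 counts. Its log2 fold change with rapamycin was -4.36 ± 0.77 (adjusted p = 0.00406, edgeR). With propranolol, where it was not called, it stood at 0.231 and 0.907 CPM in WT+P and at 0.125, 0.292 and 1.91 in KO+P. With the replicate block Slc43a2, a neutral amino acid carrier, was 1.99-fold lower with propranolol (adjusted p = 0.0276), and Slc7a7, the y+LAT1 light chain, was 1.57-fold lower with rapamycin (adjusted p = 0.000223), as was Slc6a17 (2.11-fold, adjusted p = 0.0373), all in edgeR. Slc7a7 pairs with Slc3a2 as Slc7a5 does. Slc6a17 was lower with rapamycin than with propranolol in KO cells (4.41-fold, adjusted p = 0.0179, edgeR), and the block added Slc7a7 as lower and Slc6a6, the taurine carrier, and Slc38a6 as higher in that comparison.

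Cystine taken up through Slc7a11 feeds glutathione, so 12 genes of cystine and glutathione metabolism and of the NRF2 response were read beside it. With propranolol edgeR's quasi-likelihood test called 0 of 12 averaged over genotypes, 11 of 12 estimates were higher and the median log2 fold change was 0.21, and the replicate block called Gclc and Srxn1 higher. With WT replicate 1 left out edgeR also called 0 of 12 with propranolol, Bach1 and Hmox1 with rapamycin, and Hmox1 and Srxn1 between the drugs in KO cells. Hmox1, the heme oxygenase, stood at 2512 and 1093 CPM in WT+P and 3804, 2156 and 965 in KO+P against 639 to 1768 untreated, so its groups overlapped. With rapamycin Hmox1 was 2.55-fold lower (adjusted p = 0.0489) and Bach1, its repressor, 1.62-fold higher (adjusted p = 0.0233) in edgeR. Hmox1 and Srxn1, a sulfiredoxin, were lower with rapamycin than with propranolol in KO cells (5.60-fold and 5.16-fold, adjusted p = 0.0191 and 0.0215, edgeR).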

How the data were processed

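Poly(A) RNA of mBMEC was sequenced as unstranded read pairs in 16 libraries. The deposited files hold, for each transcript, estimated counts, TPM and effective lengths made by the authors with Salmon, and the submitters' processing notes name Salmon 1.5.2, Trim Galore 0.6.7 and GRCm39; the annotation release behind these files is not given in the sources used here. Of 140789 transcripts, 139544 (99.12%) matched GENCODE M39 and were summed per gene, which left out 0.39 to 0.57% of the counts. The expected counts were rounded and tested with edgeR 4.0.16 in R 4.3.3 (filterByExpr, TMM, quasi-likelihood F test, 6 groups fitted together, 10 residual degrees of freedom), after the script had been tested on simulated data. The authors normalised HTSeq counts with DESeq2, and DESeq2 1.42.0 was run here as an alternative. A call needed a Benjamini-Hochberg adjusted p under 0.05 and a fold above 1.5, and interactions the p alone. Standard errors (SE) were derived as the absolute log2 fold change divided by the square root of its F statistic. Levels are TMM-normalised CPM. TPM summed per gene served to compare genes. Depth was 18.83 M to 26.2 M counts, and the biological coefficient of variation was 32.3% (19.0% with the replicate block).

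The replicate numbers come from the sample titles, which do not say what a number marks. In every comparison with 3 shared numbers, same-numbered libraries deviated together from their group means (r from 0.189 to 0.62), as they did in the comparisons with 2 (0.454 to 0.693). The lowest r over all pairs of groups was 0.032. The numbers were therefore taken to pair the libraries, from the values and not from the labels, and the fit with the replicate number as a block was an alternative.

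The 10 transporters and the gene lists were chosen with earlier results of these data known. Named genes were the 10 members, Pdcd10, Atf4, the listed genes called with the smallest p (at most 8, 8 and 5 per list) and the 5 genes most like Slc7a5; Kdr, B4galt2, Ccdc24 and Snhg1 were added after values were seen. Alternatives were RLE size factors, DESeq2, no filter, the replicate block, only the compared libraries, effective lengths as an offset, coding transcripts only, no fold threshold, TPM and leaving out each library. The average over genotypes for propranolol, DESeq2 with the block and the descriptions without WT replicate 1 were added after seeing the data.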

Additional observations from a re-analysis of the deposited data

How the results depend on the processing

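No transporter call changed direction under any alternative. Over the 28 values of single transporters, 304 of 436 alternative values kept their side of the threshold, 110 fell out of it and 22 came into it. With effective lengths as an offset the calls became 1 with rapamycin in KO cells, 0 in WT cells and 2 for rapamycin against propranolol in WT cells. With protein-coding transcripts only, rapamycin in WT cells gave 0, and DESeq2 with the replicate block gave 2. For propranolol in KO cells DESeq2 called 7, no filter 4 and DESeq2 with the replicate block 9, and in WT cells 4, 3 and 4. Over all 27228 genes DESeq2 called 157 in KO cells and 924 with the block, and 117 and 154 in WT cells. Fitting only the libraries compared left 1 call for propranolol averaged over genotypes, 2 for rapamycin against propranolol in KO cells and 0 in WT cells. In WT cells that drug comparison gave 8 with DESeq2, 5 with no filter, 5 with the replicate block and 9 with DESeq2 and the replicate block. Over all genes DESeq2 called 635 of 27228 there, the block 731 of 14838 and DESeq2 with the block 1230 of 27228. The replicate block changed no other count of calls by more than 1.5 times. The share of all genes called in the other fits of this section is not given. The cause of these shifts was not tested.

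Leaving out each of the 16 libraries in turn gave 0 to 2 calls for rapamycin in KO cells, 0 to 1 in WT cells and 2 each time averaged over genotypes. For propranolol the ranges were 0 to 8 in KO cells, 0 to 5 in WT cells and 1 to 9 averaged over genotypes, and for rapamycin against propranolol 3 to 9 in KO cells and 0 to 5 in WT cells. Loss of Ccm3 and both interactions stayed at 0. Where a fit left WT+P or WT+R with 1 library, that library was assumed to vary like the other groups.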

Other observations

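Psat1, which makes a precursor of serine and was among the genes most like Slc7a5, stood at 12.9 to 28.2 CPM in the 6 untreated libraries. It stood at 144 and 48.9 CPM in WT+P replicates 1 and 2, at 162, 97.7 and 35.0 in KO+P replicates 1 to 3, and at 4.30 to 9.28 with rapamycin. The 3 treatments did not overlap, and replicate 1 was the highest with propranolol in both genotypes, as it was for Slc7a5. Because Psat1 was picked for its likeness to Slc7a5 in these same libraries, this shared pattern follows from the choice and is a description.

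Snhg1, which overlaps an exon of Slc3a2-202, stood at 13.0 to 23.4 CPM untreated, at 45.8 and 17.3 in WT+P and at 50.3, 19.9 and 18.7 in KO+P, so that only the replicate 1 libraries lay above the untreated range.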
